A study of Mus musculus with 8 samples.

Results

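Striatal circRNAs that were higher after cocaine self-administration on every array are described here, and 58 of the 795 circRNAs measured met the rule that defines them. A circRNA was taken when its lowest value on 4 cocaine arrays lay above its highest value on 4 saline arrays and the mean log2 intensity was at least 0.4 higher in the cocaine group. The difference of the group means, cocaine minus saline, is called the rise. The rule used the contrast between the groups, so the sizes of the rise below are descriptions of the circRNAs chosen and were not tested. Both groups consisted of male C57BL/6J mice, given as 8 weeks old, which made nose pokes for intravenous infusions. Mice of the cocaine group obtained 0.75 mg/kg with each infusion and the control group obtained saline, with daily sessions of 2 h until responding was stable, and all mice were killed soon after the last session. RNA of the dorsal striatum of both hemispheres was treated with RNase R and hybridized with Cy3 label to a mouse circRNA array, 1 array per sample. The values are log2 intensities that the authors had quantile normalized. A difference of 1 on this scale is a 2-fold difference in intensity. The labels number 4 replicates per group without saying that each is a separate mouse, and the description of the series gives 3 mice per group, whereas the figure legends count as many subjects in each group as there are arrays.

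CircRNAs are closed loops formed when the end of an exon is spliced back to the start of an earlier one. They lack free ends, resist the exonuclease RNase R and are abundant in the brain, where many arise from genes for synaptic proteins. Some carry sites for miRNAs and can hold these away from their mRNA targets. The dorsal striatum, a target of dopamine neurons of the midbrain, takes part in the learning of actions for reward and in the formation of drug habits. The array measures a circRNA through an oligonucleotide probe for its splice junction, and each circRNA is known here by its probe number alone. The tables used here pair no probe with a circRNA name, a host gene, a position or a sequence, so the roles of the circRNAs and the sequences of the probes were not analysed here. Tissue RNA does not tell apart more copies per cell and more cells that contain a circRNA.

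The circRNAs raised under this rule made up 7.3% of those measured. The mirrored rule, with all cocaine arrays below all saline arrays and a mean at least 0.4 lower, took 226 circRNAs, or 28.4%. Raised circRNAs were thus 20.4% of those that met either rule. This division depended on the scaling of the arrays, as it was 87 raised and 188 lowered with the array medians set equal, 93 and 179 with quantile normalization applied again, and 106 and 163 with cyclic loess. The median difference of all circRNAs, cocaine minus saline, was -0.14 in the deposited values and 0.05 after cyclic loess. The 58 circRNAs had a median rise of 0.81 in the deposited values, which is 0.95 above that median of all circRNAs. All 58 met the rule after cyclic loess, 54 did after median centring and 53 after the second quantile normalization, and 50 met it under all 4 scalings. A further 19 circRNAs met it under the 3 other scalings but not in the deposited values. In the fit across all circRNAs with limma, 55, or 6.92%, were higher with cocaine at an adjusted p under 0.05, and 52 of these were among the 58. Nothing is read from that count, since the rule and the fit use the same contrast.

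By size, 16 of the 58 circRNAs were at least 2-fold higher in the cocaine group, 25 were between 1.5-fold and 2-fold higher, and 17 were less than 1.5-fold higher. Over all circRNAs measured, 28, or 3.52%, were at least 2-fold higher, and the groups overlapped for the 12 of these that are not among the 58. The brightest saline levels and the largest rises lay in different circRNAs, and they are described in turn.

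The saline level of the 58 circRNAs spanned nearly the whole array, from a mean log2 intensity of 3.84 to 14.26, with a median of 8.03. The median over all circRNAs measured was 7.83. When the measured circRNAs were divided into 4 bands of equal size by their saline mean, 24 of the 199 in the dimmest band were among the 58, or 12.1%. In the lower middle band there were 4 of 199, or 2.01%. The upper middle and the brightest bands held 15 each, or 7.58% and 7.54%. The raised circRNAs were therefore mostly either dim, with a saline mean of at most 6.90, or above the median intensity. A low saline value helps a circRNA to meet the rule, so the share in the dimmest band is not independent of it. The authors also kept only circRNAs above 2 times background, and the methods do not say on which arrays. A circRNA dim in saline mice may have been kept through its cocaine arrays, which could also raise this share. The part of the filter was not tested. The median difference of all measured circRNAs also varied with intensity in the deposited values, at 0.00 in the dimmest band, -0.36 in the lower middle, -0.26 in the upper middle and -0.02 in the brightest. After cyclic loess these medians were 0.29, -0.08, -0.10 and 0.04, and 42, 18, 27 and 19 circRNAs met the rule in the same order of bands. The lower middle band held the fewest under each of the 4 scalings, although after cyclic loess it differed by 1 from the brightest band.

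The 2 brightest of the raised circRNAs in saline mice were ASCRMP000476 and ASCRMP000458. ASCRMP000476 had values of 14.53, 13.96, 14.43 and 14.12 on saline arrays 1 to 4 and of 14.98, 14.80, 14.75 and 14.67 on cocaine arrays 1 to 4. This circRNA ranked 19 of 795 by saline level and was 1.45-fold higher in the cocaine group. ASCRMP000458 had 14.33, 14.21, 14.34 and 14.05 on the saline arrays and 14.77, 14.62, 14.87 and 14.92 on the cocaine arrays, 1.48-fold higher, from 14.23 ± 0.13 to 14.79 ± 0.13 (SD, n = 4). The highest value of any of the 58 circRNAs on any array was 14.98, under the maximum of each array, which was at least 15.96. ASCRMP000119, ranked 62, was the third brightest and had the smallest rise of all 58, from 12.30 ± 0.13 to 12.71 ± 0.16 (SD, n = 4), or 1.33-fold. Its 4 cocaine values, 12.65, 12.52, 12.77 and 12.89, began 0.04 above its highest saline value of 12.48. Its groups thus nearly touched.

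Of the raised circRNAs in the brightest band, ASCRMP000210 and ASCRMP000370 were at least 2-fold higher. ASCRMP000210 had values of 11.02, 10.45, 11.09 and 10.75 on saline arrays 1 to 4 and of 12.49, 12.02, 11.79 and 11.80 on cocaine arrays 1 to 4. It was 2.29-fold higher, from 10.83 ± 0.29 to 12.03 ± 0.33 (SD, n = 4). The gap between its lowest cocaine and its highest saline value, 0.70, was the third widest of the 58 circRNAs and exceeded the range of its saline arrays, 0.64. ASCRMP000370 was 2.24-fold higher, from 10.48 ± 0.44 to 11.65 ± 0.22 (SD, n = 4). Of the 16 circRNAs with a rise of at least 2-fold, 2 were in the brightest band, 2 in the upper middle, 1 in the lower middle and 11 in the dimmest. The limits given above for the share in the dimmest band, from the rule and the background filter, apply here too.

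The 3 largest rises came from dim circRNAs, and the next largest, that of ASCRMP000657, from the lower middle band. ASCRMP000699 was the dimmest circRNA of the array in saline mice, with 3.39, 4.004, 4.35 and 3.61 on saline arrays 1 to 4, and had 7.19, 6.39, 6.60 and 5.53 on cocaine arrays 1 to 4. It was the dimmest spot of saline arrays 2, 3 and 4. The lowest value of saline array 1 was 2.90, in a circRNA outside the 58. ASCRMP000699 thus lay at or near the lowest value of each saline array. Its saline mean of 3.84 may be limited by signal near background, and no fold is given. None of the other 57 circRNAs held the lowest value of any array. ASCRMP000053 had the second largest difference, from values between 4.73 and 5.70 on the saline arrays to 7.98, 8.11, 6.62 and 6.51 on cocaine arrays 1 to 4, a 3.86-fold rise. ASCRMP001372, the third by size, had 6.67, 5.54, 6.25 and 5.72 on saline arrays 1 to 4 and 8.15, 7.23, 8.24 and 7.79 on cocaine arrays 1 to 4. It was 3.50-fold higher with cocaine, and cocaine array 3 held its highest value, unlike in ASCRMP000053. ASCRMP000403, among the 3 dimmest in saline mice, was 3.33-fold higher, from 5.27 ± 0.86 to 7.00 ± 0.71 (SD, n = 4). Its saline arrays spanned 1.88, the widest saline range of the 58, with 4.03 on saline array 1 against 5.35 to 5.91 on the others. Its gap between the groups was 0.18. The folds of ASCRMP000053 and ASCRMP000403 also rest on saline levels near the dim end of the array.

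Across the 58 circRNAs, the rise was larger where the saline level was lower, with a Spearman correlation of -0.44 and a Pearson correlation of -0.49. The same correlations over all measured circRNAs were -0.08 and -0.08. These are across circRNAs that share the 8 arrays and are not independent replicates. The saline mean enters both measures, and a threshold on the rise was applied. The background filter may also have kept circRNAs dim in saline mice through their cocaine arrays. The median rise was 0.95 in the dimmest band, 0.73 in the upper middle band and 0.70 in the brightest.

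Evenness of the rise was described by the range over the cocaine arrays, the highest minus the lowest of a circRNA's 4 cocaine values. The median range was 0.67 over the 58 circRNAs and 0.82 over all measured. Over the saline arrays it was 0.55 for the 58 and 0.46 for all measured. The range was larger over the cocaine than over the saline arrays for 40 of the 58, or 69.0%, and for 80.3% of all measured. A wide cocaine range makes overlap with the saline arrays more likely, so the rule itself favours circRNAs with an even rise. The range tended to be wide where the rise was large (Spearman correlation 0.76 over the 58 circRNAs and 0.27 over all measured) and where the saline level was low (-0.63 and -0.26). It had a median of 1.17 in the dimmest band and of 0.45 in the brightest, where the medians of all measured circRNAs were 1.02 and 0.73.

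The 3 most even rises belonged to bright circRNAs. The 4 cocaine values of ASCRMP000868 were 11.08, 11.09, 11.06 and 11.03, with a range of 0.05, above saline values of 10.66, 10.49, 10.66 and 10.41. Its rise was 1.42-fold, and its gap of 0.37 was wider than its saline range of 0.25. ASCRMP001658 had 10.72, 10.57, 10.66 and 10.54 on the cocaine arrays and 9.80, 9.70, 10.17 and 9.94 on the saline arrays, a 1.64-fold rise with a cocaine range of 0.17. ASCRMP001607 was 1.49-fold higher with cocaine, from 10.57 ± 0.20 to 11.14 ± 0.08 (SD, n = 4), with a cocaine range of 0.18. Of the 6 circRNAs with a cocaine range under 0.3, 5 were in the brightest band and the other was in the dimmest. A range this small was held by 10.3% of the 58 circRNAs and by 9.18% of all measured. The bands of the latter are not given here, so nothing is read from the bands of the 6.

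The least even rises took different forms. ASCRMP000173 was high on 1 array, with 10.37 on cocaine array 3 against 8.39, 8.98 and 8.47 on cocaine arrays 1, 2 and 4 and saline values of 7.92 to 8.29. Its mean rise of 1.94-fold therefore leaned on that array. ASCRMP001445 was divided by pairs, with 8.66 and 8.45 on cocaine arrays 1 and 2, 7.18 and 6.95 on cocaine arrays 3 and 4, and 6.72, 6.52, 6.84 and 6.49 on the saline arrays. Its lowest cocaine value lay 0.10 above its highest saline value. ASCRMP000657 showed the same division at a higher level, with 10.10 and 10.12 on cocaine arrays 1 and 2 and 8.96 and 8.45 on cocaine arrays 3 and 4. Its saline values were 7.32, 7.57, 7.96 and 7.75, so that even the lower cocaine pair stood clear of them, and its group mean was 3.39-fold higher. The cocaine range exceeded 1 for 17 of the 58 circRNAs, or 29.3%, against 37.5% of all measured. Of these 17, 14 were in the dimmest band. Over all measured circRNAs the median cocaine range was also widest in that band, at 1.02. It was 0.84, 0.66 and 0.73 in the lower middle, upper middle and brightest bands.

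The order of the cocaine arrays was not the same for all 58 circRNAs. Cocaine array 1 held the highest of the 4 values for 29 circRNAs, or 50.0%, against 27.5% of all measured, whereas array 2 held it for 10, array 3 for 5 and array 4 for 14, or 17.2%, 8.62% and 24.1%, against 29.6%, 19.4% and 23.5%. The lowest was on array 4 for 24 circRNAs, or 41.4%, against 22.0% of all measured. It was on array 3 for 20, or 34.5%, against 35.8%. Both of cocaine arrays 1 and 2 lay above both of arrays 3 and 4 for 30 circRNAs, or 51.7%, against 40.1% of all measured, and the reverse held for 8, or 13.8%, against 24.9%. The 30 had a median rise of 0.85 and a median saline level of 7.65, and the 8 had a median rise of 0.57 and a median saline level of 9.45. The medians of the whole arrays over all circRNAs were 7.93, 7.93, 7.61 and 7.62 for cocaine arrays 1 to 4. With the array medians set equal, the division was 13 against 19, in the opposite direction, while it was 23 against 13 after the second quantile normalization and 29 against 11 after cyclic loess. The reason for the difference between scalings was not tested.

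Taken against the saline mean, the median rise over the 58 circRNAs was 0.91, 0.82, 0.66 and 0.68 for cocaine arrays 1 to 4. After median centring it was 0.81, 0.74, 0.89 and 0.90 in the same order. A further round of quantile normalization gave medians of 0.97, 0.90, 0.86 and 0.80, and cyclic loess gave 1.06, 0.997, 0.91 and 0.83. Array 1 was highest in the deposited values and under both of these, but not after median centring. In the deposited values the arrays differed most among the dim circRNAs, with 1.45, 1.20, 0.76 and 0.72 in the dimmest band and 0.79, 0.66, 0.68 and 0.63 in the brightest. On its lowest cocaine array, a circRNA of the 58 stood a median of 0.43 above its saline mean, against -0.63 over all measured. The rule of no overlap itself places that array above the saline mean. All 4 cocaine arrays were at least 0.4 above the saline mean for 34 of the 58 circRNAs, and at least 2-fold above for 4. The shares over all measured circRNAs are not given here, so nothing is read from these counts.

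The distance between the groups was small for many of the 58 circRNAs. The gap between the lowest cocaine and the highest saline value had a median of 0.14, against -0.89 over all measured. It exceeded 0.1 for 39 of the 58 and exceeded 0.5 for 5. It was wider than the whole range of the saline arrays for 7. The rule makes each of these gaps positive, and the shares over all measured circRNAs are not given here. At the limit of no overlap, the circRNAs just inside were ASCRMP000828, ASCRMP000093 and ASCRMP000309, with gaps of 0.0006, 0.0019 and 0.01. Just outside were ASCRMP001252, ASCRMP000009 and ASCRMP000133, with gaps of -0.02, -0.03 and -0.03 and mean differences of 0.83, 0.65 and 0.46. ASCRMP000093 shows how close this was, with 7.14, 6.36, 6.38 and 5.51 on the cocaine arrays in order, and 5.51, 5.09, 5.30 and 4.66 on the saline arrays. At the limit of size, ASCRMP000119, ASCRMP001662 and ASCRMP000785 were just inside, with differences of 0.41, 0.44 and 0.45. ASCRMP000701, ASCRMP000075 and ASCRMP000297 were just outside, with 0.39, 0.38 and 0.30. In all, 67 circRNAs, or 8.43%, had every cocaine array above every saline array, 9 of them with a mean difference of less than 0.4, and 103 were higher by 0.4 or more with overlapping groups.

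The rise was next read on each cocaine array after the rule had been applied without it. When cocaine array 1 was left out, the rule picked 62 circRNAs, and 57 of them, or 91.9%, lay above all saline arrays on cocaine array 1. The share of all measured circRNAs above all saline arrays on that array was 32.5%. Without array 2 the share was 83.6% of 67 circRNAs, against 32.1% of all measured. Without array 3 it was 70.9% of 79 circRNAs, against 25.2%, and without array 4 it was 79.7% of 74 circRNAs, against 23.6%. The circRNAs picked without a cocaine array were thus higher on it more often than circRNAs in general, least often on array 3. Their median difference from the saline mean on the array left out was 0.81, 0.73, 0.50 and 0.54 for arrays 1 to 4. The highest saline value served both to pick these circRNAs and to read the cocaine array left out, which by itself raises their shares. The normalization and the authors' background filter were shared by choice and reading as well. These shares are therefore descriptions with no test.

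Leaving out a saline array and reading it against the lowest cocaine value gave 90.5% of 63 circRNAs for saline array 1, 93.5% of 62 for array 2 and 93.3% of 60 for array 4. For saline array 3 it was 79.5% of 73 circRNAs. The corresponding shares over all measured circRNAs were 17.9%, 22.9% and 21.1% for those arrays and 13.1% for saline array 3. The lowest cocaine value served both to pick these circRNAs and to read the array left out, which by itself raises their shares. These too are descriptions with no test. Saline array 3 was also the array on which the 58 circRNAs were most often highest among the saline arrays, for 32 of them, or 55.2%, against 19.6% of all measured.

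For co-variation, each value was centred on the mean of its group, so that the difference between cocaine and saline was removed. Between pairs of the 58 circRNAs, the correlation of these deviations over the 8 arrays had a median of 0.20, against 0.03 over pairs of all measured circRNAs and 0.20 over pairs of the circRNAs lowered under the mirrored rule. It exceeded 0.5 for 33.0% of pairs of the 58, against 24.4% of all pairs, and was below -0.5 for 11.2%, against 22.0%. The arrays, their normalization and the scale of each array are shared by all circRNAs, and after median centring the median was 0.0947 for the 58 and 0.0638 for all measured. With quantile normalization applied again these medians were 0.195 and 0.0008, and with cyclic loess they were 0.204 and 0.0011.

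In the deposited values, the raised circRNAs were mostly high on cocaine array 1 and saline array 3 relative to the rest of each group. On cocaine array 1, 43 of the 58, or 74.1%, lay above their group mean, and on saline array 3, 48, or 82.8%, did, against 54.7% and 49.7% of all measured. They were mostly low on cocaine arrays 3 and 4, where 17 each, or 29.3%, lay above the group mean, against 39.4% and 48.1% of all measured. They were also mostly low on saline array 2, where 14, or 24.1%, did, against 50.9%, and on saline array 4, where 18, or 31.0%, did, against 47.7%. For 18 circRNAs, or 31.0%, cocaine array 1 was the highest cocaine array and saline array 3 the highest saline array, against 11.2% of all measured. Over the 58 circRNAs, the deviations on these 2 arrays had a correlation of 0.56, and over all measured circRNAs it was 0.58. Over all measured circRNAs, the deviations of cocaine array 2 with saline array 4, of 3 with 1 and of 4 with 2 also went together, at 0.57, 0.47 and 0.43, against 0.27, 0.30 and 0.245 over the 58. The labels give no slide or batch that would pair arrays across the groups, and the part of such a pairing in these values was not tested. The first component of the deviations of the 58 held 51.9% of their variance, with weights of 0.61, 0.27, -0.41 and -0.47 for cocaine arrays 1 to 4 and 0.04, -0.18, 0.32 and -0.18 for the saline arrays in the same order. Of the 58, 43 had a positive score on it. The component was fitted to these same 58 with unscaled deviations, so circRNAs with wide ranges weigh more in it. The share over all measured circRNAs is not given here, so nothing is read from the 51.9% or the 43. These counts and weights are those of the deposited values and are not given for the other scalings. The median rise on each cocaine array did differ with the scaling. With the array medians set equal, the median rise was 0.81 and 0.74 on cocaine arrays 1 and 2. It was then higher, 0.89 and 0.90, on cocaine arrays 3 and 4. The second quantile normalization and cyclic loess kept cocaine arrays 1 and 2 the higher ones.

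Some pairs of the 58 circRNAs deviated almost alike, bright and dim ones among them. The closest pair was ASCRMP000230 and ASCRMP000476, with a within-group correlation of 0.98. ASCRMP000230 had 12.81, 12.33, 12.36 and 12.21 on the cocaine arrays, and 12.12, 11.08, 12.12 and 11.26 on the saline arrays in order, high on saline arrays 1 and 3 as ASCRMP000476 was. The pair ASCRMP000370 and ASCRMP000722 also reached 0.98, as did ASCRMP000377 and ASCRMP000451, the latter in the dimmest band. ASCRMP001445 and ASCRMP001365, both dim, reached 0.97. ASCRMP001445, with its high cocaine arrays 1 and 2, was most unlike ASCRMP001604, at -0.95. ASCRMP001604 had 6.23, 6.44, 7.26 and 7.36 on the cocaine arrays in order, and 6.14, 5.85, 5.93 and 6.10 on the saline arrays, and was thus higher on cocaine arrays 3 and 4. Both were above their saline values on all cocaine arrays, but their largest values were on different arrays. These pairs were picked from 1653, and a correlation over 8 arrays with the group means removed can be this high or low in pairs taken as extremes.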

How the data were processed

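Dorsal striatum RNA was measured on 8 one-colour arrays, 4 of the cocaine group and 4 of the control group, matched through the labels' titles. According to the methods, the authors used GenePix Pro to read the spots, then quantile normalized in R and filtered out circRNAs whose flag was not above 2 times background. What they deposited, log2 intensities of 795 circRNAs, was used as it is. The sources used here give neither the background correction nor the averaging of spots. A deposited sheet with a title line only was not used. There were 0 unmatched columns, and no pair of arrays held identical values.

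The rule was applied to these values, and ranges, gaps, bands of the saline mean and within-group correlations were computed in Python 3.11.15 (pandas 2.3.3, numpy 2.4.6). The fit across all circRNAs used limma 3.58.1 in R 4.3.3, two-sided, with Benjamini-Hochberg adjustment. The scripts were tested on simulated data. The members and all lists were chosen with earlier results of these data known. Probes were named by a rule: 3 each for the highest and lowest saline level, the largest and smallest rise and cocaine range, the widest gap, and those nearest each limit on both sides. ASCRMP000230, ASCRMP000370, ASCRMP000377, ASCRMP000451, ASCRMP000722, ASCRMP001365 and ASCRMP001604 were named after their values were seen, as were the circRNAs with an array far from the others. Alternatives were other scalings, limits, filters on dim circRNAs, the t-test of the methods, a replicate block and leaving out each array. The sources used here give neither slide nor scan. The number of arrays limits the precision.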

Additional observations from a re-analysis of the deposited data

Results flagged for a closer look

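An array far from the other 3 of its group was found in 2 of the 116 groups of 4 values that the 58 raised circRNAs have, or 1.72%. Over all measured circRNAs it was found in 53 of 1590 groups, or 3.33%, and chance gives about 1 in 20. The rule of no overlap makes an array that strays towards the other group less likely among the 58, so nothing is read from the lower share. ASCRMP000223 had 10.89 on cocaine array 3 against 10.30 to 10.39 on the other cocaine arrays. ASCRMP000672 had 9.82 on saline array 3 against 9.44 to 9.51 on the other saline arrays. Just outside the limit of no overlap, ASCRMP000133 had 7.30 on saline array 4 against 7.80 to 7.89 on the other saline arrays.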

How the results depend on the processing

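The number of circRNAs that met the rule was 93 after a second quantile normalization, 106 after cyclic loess, 16 with a limit of 2-fold and 34 among circRNAs above the median intensity, and 60 to 79 with 1 array left out. The median rise of the 58 was 0.99 after cyclic loess. Their median range over the cocaine arrays was 0.52 to 0.67 with 1 array left out, as fewer arrays give a smaller range, and their median saline level was 7.97 to 8.06 with 1 array left out and 7.96 after cyclic loess. The median within-group correlation was 0.0947 after median centring and 0.187 to 0.307 with 1 array left out. The count of circRNAs higher with cocaine in limma was 84, 95 and 112 under median centring, second quantile normalization and cyclic loess (190, 162 and 152 lower, against 227), 34 above the median intensity, 18 by the methods' t-test at its own thresholds of fold and unadjusted p, and 25 to 82 with 1 array left out, with 26 without saline array 2 and 25 without saline array 4. With the replicate number as a block it was 37. Same-numbered arrays did not deviate together, with correlations of their deviations from the group means of -0.26 to 0.00 over all circRNAs. Each cocaine array correlated best with a saline array of another number, at 0.58 for cocaine array 1 with saline array 3, 0.57 for 2 with 4, 0.47 for 3 with 1 and 0.43 for 4 with 2. Whether arrays were paired by slide, batch or mouse is not given in the labels, and no such pairing was fitted. For the counts, the cause was not tested. Signal near background limits what the dim circRNAs can show.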
